A study of Mus musculus with 26 samples.

Results

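Class IIa histone deacetylases and the MEF2 transcription factors they bind were followed in the left ventricle of mice lacking B55α in heart muscle cells. The genes are Hdac4, Hdac5, Hdac7 and Hdac9, which encode the class IIa enzymes, and Mef2a, Mef2c and Mef2d, which encode MEF2 factors. They were taken by gene name from the deposited count matrix, which lists 56941 genes. All 7 were found once each, and all 7 were among the 15357 genes with enough counts to be tested.

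MEF2 factors bind an AT-rich sequence in the control regions of muscle genes and switch on contractile, metabolic and stress genes of the heart. Class IIa HDACs have little deacetylase activity of their own. They sit on MEF2 and recruit corepressor complexes that hold HDAC3, until kinases of the CaMK and PKD families phosphorylate them, 14-3-3 proteins bind and the complex leaves the nucleus. Phosphatases, PP2A among them, reverse this phosphorylation, and B55α has been studied as a PP2A subunit that acts on class IIa HDACs. That control acts on the proteins; the counts measure only the messenger RNA.

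RNA was sequenced from left ventricle of 26 mice in 4 groups, with 6 control (Ctrl) males, 7 knockout (cKO) males, 6 Ctrl females and 7 cKO females. Ctrl mice were aMHC-Cre0/0-Ppp2r2aL/L, with both alleles of Ppp2r2a, the B55α gene, flanked by loxP and no Cre. The cKO mice were aMHC-CreTg/0-Ppp2r2aL/L and carried in addition a Cre recombinase driven by the αMHC promoter, which is active in heart muscle cells. All mice were 12 to 16 weeks old and had received saline from an implanted pump for 2 weeks. The strain label is C57BL/6N, while the series text gives a mixed background of C57BL6/N for the floxed line and FVB for the Cre line. Cre-positive mice with unflanked alleles were not analysed here, so loss of B55α, the Cre transgene and FVB sequence carried with it cannot be told apart.

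Library totals ran from 14403102 to 30867399 counts. Ppp2r2a, given as CPM (counts scaled by TMM to a common library total), ranged from 24.1 to 47.7 in Ctrl males, 11.8 to 16.2 in cKO males, 36.2 to 46.7 in Ctrl females and 9.96 to 16.2 in cKO females. No Ctrl library reached down to a cKO library. Ctrl males 3 and 6, at 24.9 and 24.1 CPM, were the lowest Ctrl libraries, and results in males are given with and without them where they differ. The tissue label was borne out by abundant cardiomyocyte markers (59771 to 82074 CPM summed over 8 genes) and atrial markers at no more than 2.31 CPM summed over 3 genes. Endothelial markers (8 genes) summed to 1075 to 1571 CPM, fibroblast markers (8 genes) to 805 to 1357 CPM and macrophage markers (7 genes) to 119 to 222 CPM. In such bulk tissue, fewer cells of a type and less RNA per cell cannot be told apart.

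All 7 genes were well measured in every mouse. The deepest counts were those of Mef2d, from 2228 to 4768 per library, and the shallowest those of Hdac9, from 171 to 629. To compare genes with each other, CPM were divided by the length of all annotated exons of the gene in kilobases. On this scale Mef2d had the highest level of the 7 in 26 of 26 mice, at 26.3 ± 1.69 CPM per kb (SD, n = 26). Hdac7 at 10.7 ± 1.18, Hdac5 at 10.6 ± 0.801 and Mef2a at 10.2 ± 1.01 CPM per kb came next and did not differ beyond their spread. Their order changed between mice, with Hdac7 above Hdac5 in 16 of 26 and Hdac5 above Mef2a in 13 of 26. Mef2c (3.59 ± 0.461), Hdac4 (1.96 ± 0.281) and Hdac9 (1.05 ± 0.209 CPM per kb) followed in this order in all 26 mice. 

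The choice of length moved these levels. Divided by the longest transcript in place of all exons, Mef2a stood at 27.0 CPM per kb, with a range of 22.5 to 33.8 that overlapped the 24.5 to 32.7 of Mef2d. Hdac5 was then at 17.2 and Hdac7 at 14.01 CPM per kb, both entirely below Mef2a. Within the MEF2 family and on the scale of all exons, Mef2d made up 64.4% ± 1.77 of the summed level in Ctrl males (SD, n = 6) and 66.1% ± 1.98 in cKO males (SD, n = 7). In females its shares were 65.2% ± 1.89 (Ctrl, n = 6) and 66.6% ± 1.97 (cKO, n = 7). These shares hold for the all-exon scale only. Per longest transcript the means of Mef2d (29.2 CPM per kb) and Mef2a (27.0) lay close together. Within class IIa, Hdac5 and Hdac7 held most of the sum, at 43.4% and 43.8% in Ctrl males, while Hdac4 held 7.96%. Among other family members on the same scale, the corepressor-bound enzyme Hdac3 was at 11.8, Hdac2 at 10.6 and Hdac1 at 4.77 CPM per kb. The remaining MEF2 gene, Mef2b, reached only 0.212 CPM per kb and was too low to be tested.

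**Figure D1:**
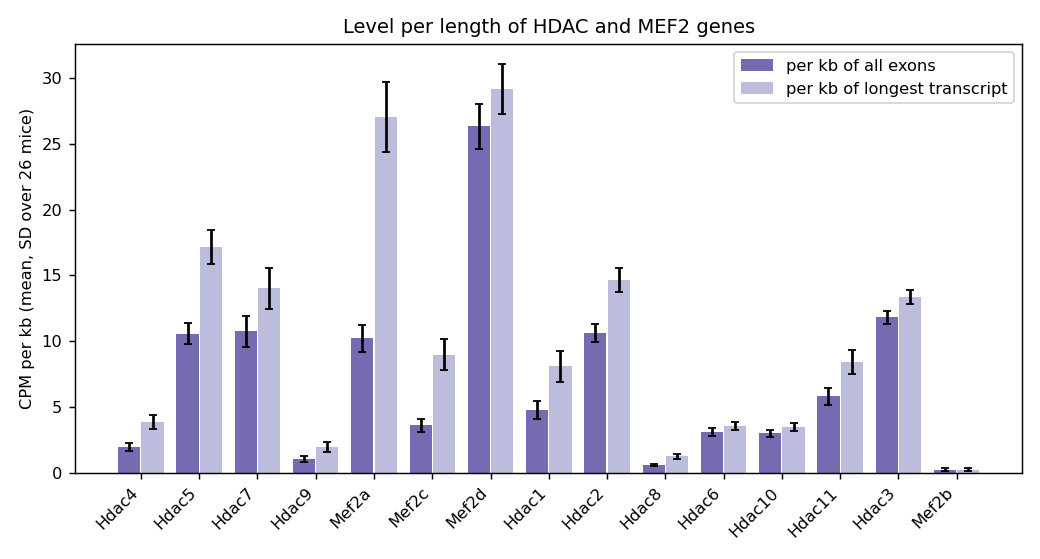
Level per length of the class IIa HDAC and MEF2 genes and, for scale, of the other HDAC and MEF2 genes. Bars are the mean over 26 mice of CPM per kilobase of all exons (dark) or of the longest transcript (light), whiskers the SD. Mef2d has the highest mean on both scales, but its range overlaps that of Mef2a per longest transcript. Mef2a moves from 10.2 to 27.0 with the length used.

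MEF2 sites were looked for at the start of each gene, because MEF2 genes and their repressors may themselves carry the sequence that MEF2 reads. The RefSeq promoter table for build GRCm38.p6, from 250 bases before to 50 bases after each start, matched all 7 genes in 13 windows of 300 bases. The MEF2 consensus was searched on both strands, with no other motif. A match was found in 1 window each of Mef2a and Hdac5, so in 2 of 13 windows, against 3.19% of all 32851 windows. By gene this was 2 of 7 members, against 3.7% of 27025 genes and 3 of the 14 known MEF2 target genes with a window. The matched 10 bases are in capitals, with 25 bases on either side, written 5′ to 3′ on the minus strand on which both genes lie (Mef2a chr7:67372826-67372885, Hdac5 chr11:102230158-102230217).

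Mef2a: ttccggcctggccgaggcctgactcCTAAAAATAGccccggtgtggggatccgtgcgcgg
Hdac5: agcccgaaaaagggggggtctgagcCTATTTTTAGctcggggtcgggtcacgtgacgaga

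In Mef2a the match began 2 bases before the annotated start, and in Hdac5 20 bases before it. These are matches of letters only, and binding was not measured.

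The first comparison asked whether loss of B55α changed these genes in males. None of the 7 passed the test, and their group means lay close together. The factor gene with the strongest signal was Mef2d, whose cKO mean was 1.09 times the Ctrl mean. The enzyme genes Hdac4 and Hdac7 had fold changes of 1.08, and Hdac9, a class IIa enzyme known as a restraint on stress-induced growth, had 0.902. With edgeR's quasi-likelihood test, 0 of 7 genes had an adjusted p under 0.05, against 0.443% of all genes tested. At an unadjusted p under 0.05 there was 1 of 7, Mef2d, against 13.2% of all genes. The DESeq2 Wald test and limma voom also called 0 of 7, although the Wald test called 399 of all genes in males.

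Mef2d in Ctrl males ranged from 132.5 CPM through a median of 149.7 to 163.5, and in cKO males from 150.6 through 164.9 to 176.5. The groups overlapped, but 7 of 7 cKO males lay above the Ctrl mean. By edgeR this was a log2 fold change of 0.13 with SE 0.05 and a 95% interval of 0.03 to 0.23 (adjusted p = 0.223). An exact two-sided permutation test of mean log2 CPM (6 against 7 mice, 1 of 28 such tests on the 7 genes) gave p = 0.0192. Adjusted by Benjamini-Hochberg over the 28 tests, the permutation p was 0.269. Without Ctrl males 3 and 6 the log2 fold change was 0.08, and with an offset for transcript length and GC content it was 0.06. Over 15092 genes the log2 fold changes in males also went up with transcript length, with a Spearman correlation of 0.254 across genes, which are not independent replicates.

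Hdac7, the class IIa enzyme best known from endothelial cells, ranged from 61.3 through 67.3 to 75.2 CPM in Ctrl males and from 68.9 through 72.4 to 80.3 CPM in cKO males. Here too 7 of 7 cKO males lay above the Ctrl mean, within overlapping groups. It had a log2 fold change of 0.11 with SE 0.08 (edgeR, adjusted p = 0.549), and of 0.06 without Ctrl males 3 and 6. With the length and GC offset it was 0.04, and with offset and replicate block together 0.01 (adjusted p = 0.981).

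Hdac4, a main target of CaMKII in heart muscle, ranged from 21.7 through 30.5 to 32.5 CPM in Ctrl males and from 24.9 through 29.3 to 43.1 CPM in cKO males. The median was thus lower and the highest value higher in cKO. From a log2 fold change of 0.11 with SE 0.11 (edgeR, adjusted p = 0.719) it went to 0.20 without Ctrl males 3 and 6 (adjusted p = 0.487), to 0.02 with the length and GC offset (adjusted p = 0.963) and to 0.01 without cKO male 4 (adjusted p = 0.971).

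Hdac5, the other class IIa enzyme studied for heart growth, gave 75.9 to 97.4 CPM in Ctrl males and 84.4 to 100.5 CPM in cKO males (log2 fold change 0.04, SE 0.05). Hdac9 gave 13.5 to 19.5 and 10.0 to 17.5 CPM (log2 fold change -0.15, SE 0.16). Each pair of ranges overlapped over most of its length.

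For Mef2a, the MEF2 gene tied to mitochondrial upkeep in the adult heart, the ranges were 130.7 to 169.6 and 132.2 to 171.7 CPM (log2 fold change 0.00, SE 0.08). Mef2c, needed for heart formation in the embryo, had 49.7 to 63.7 and 46.8 to 64.6 CPM (log2 fold change 0.06, SE 0.10). Over the 7 genes the median log2 fold change in males was 0.06, against 0.001 over all genes. It was above 0 for 6 of 7, but those of Hdac5, Mef2a and Mef2c turned below 0 with the length and GC offset. The single-gene 95% intervals of this edgeR fit, not adjusted over genes, ran from 0.718-fold at the low end (Hdac9) to 1.25-fold at the high end (Hdac4). They hold for this fit only, and with the length and GC offset Hdac9 moved to a log2 fold change of -0.22 (SE 0.16).

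**Figure D2:**
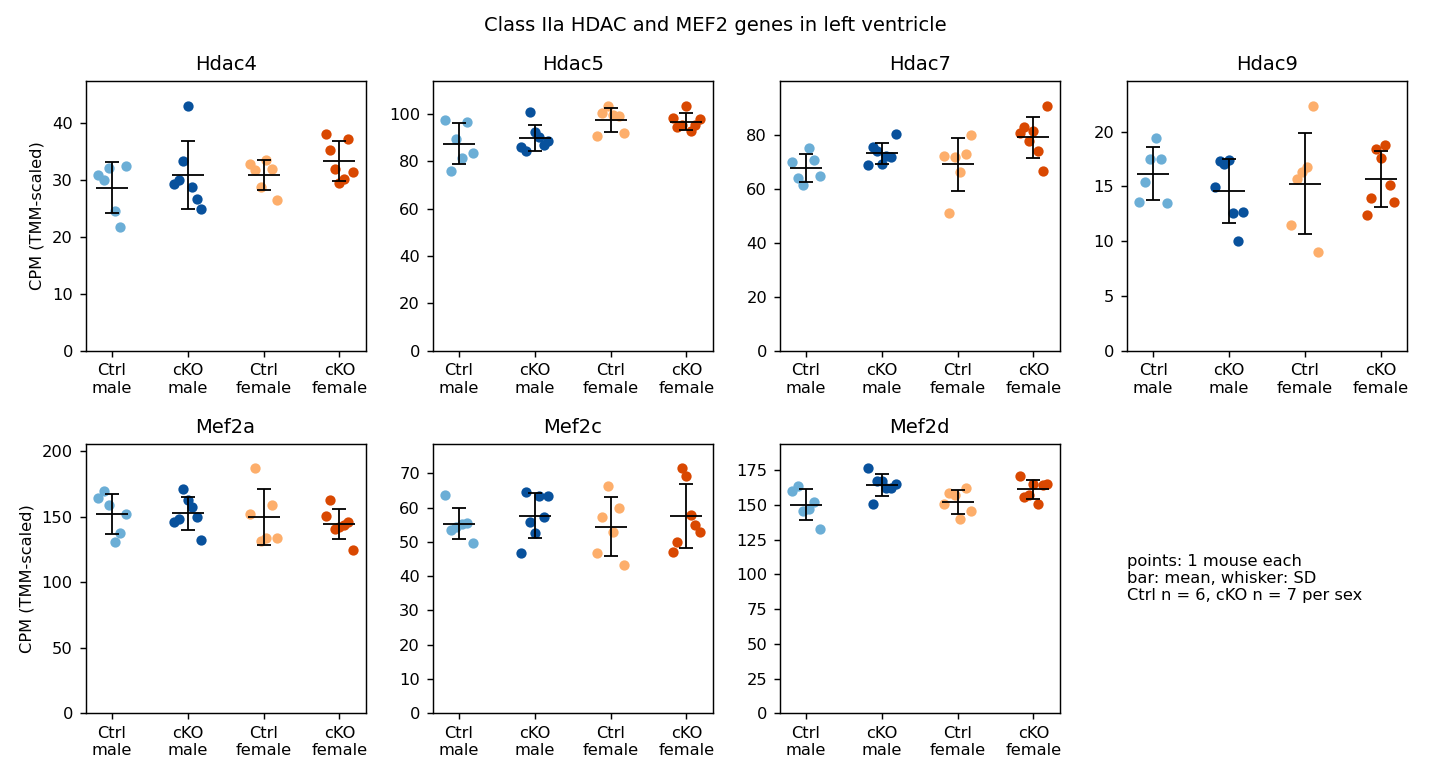
CPM (vertical axis, from 0) of each class IIa HDAC and MEF2 gene in every mouse, by genotype and sex. Each point is 1 mouse, horizontal bars are means and whiskers SDs (Ctrl n = 6, cKO n = 7 per sex); the groups overlap for every gene, and Hdac7 in Ctrl female 2 is at 51.2.

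In females the genotype comparison again called none of the 7 genes (edgeR, 0 of 7, against 0.0326% of all genes tested). Hdac7 had the largest fold change, 1.15, and Mef2d followed Hdac4 at 1.06 and 1.08. Hdac5 and Mef2a lay just under 1, at 0.992 and 0.965. At an unadjusted p under 0.05 there was 1 of 7, Hdac7, against 5.15% of all genes. The DESeq2 Wald test and limma voom called 0 of 7, and the Wald test called 9 of all genes in females.

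Hdac7 ranged from 51.2 through 72.0 to 80.1 CPM in Ctrl females and from 66.6 through 80.9 to 90.9 CPM in cKO females. Of 7 cKO females 6 lay above the Ctrl mean, and the lowest value of all 26 mice was that of Ctrl female 2. Its log2 fold change was 0.20 with SE 0.08 and a 95% interval of 0.04 to 0.35 (edgeR, p = 0.0144, adjusted p = 0.922), with p = 0.0513 in the exact permutation test. Without Ctrl female 2 it was 0.12, as it was with offset and replicate block together. The summed endothelial markers averaged 1236 CPM (SD 90.7, Ctrl, n = 6) and 1277 CPM (SD 146, cKO, n = 7), 0 of 8 of these markers were called, and their part in the Hdac7 values was not tested.

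Mef2d gave 139.9, 154.0 and 162.2 CPM as lowest, median and highest value in Ctrl females and 150.9, 164.4 and 171.1 CPM in cKO females. As in males, most cKO mice (6 of 7) lay above the Ctrl mean in overlapping groups. The fitted log2 fold change was 0.08 with SE 0.05 (edgeR, adjusted p = 0.956), and the exact permutation p was 0.0583 (adjusted 0.272).

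Hdac4 had 26.5, 31.8 and 33.4 CPM in Ctrl females and 29.5, 31.8 and 37.998 CPM in cKO females, with medians that nearly coincided (log2 fold change 0.11, SE 0.11). Mef2a had 131.8, 143.2 and 187.2 against 124.9, 143.8 and 163.3 CPM (log2 fold change -0.05, SE 0.08). Its highest value belonged to Ctrl female 2, the mouse with the lowest Hdac7, and without this mouse the log2 fold change was 0.02. The remaining genes spread widely within each group: Hdac9 from 8.99 to 22.4 CPM in Ctrl females and from 12.4 to 18.7 in cKO females, and Mef2c from 43.3 to 66.3 and from 46.9 to 71.4 CPM. Hdac5 was tighter, at 90.5 to 103.4 and 92.7 to 103.5 CPM.

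The series title asks about regulation that differs by sex, which for these genes is the difference between the female and the male genotype effect. It was not detected for any of the 7 (edgeR, 0 of 7, against 0% of all genes; DESeq2 and limma voom also 0; 0 of 7 at an unadjusted p under 0.05, against 3.96%). The largest difference was that of Hdac9, at 0.19 on the log2 scale (SE 0.23, 95% interval -0.28 to 0.65). For Hdac7 it was 0.08 (-0.13 to 0.30) and for Mef2d -0.05 (-0.19 to 0.09), so that sex differences of these sizes in the effect could not be seen here.

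Averaged over both sexes, the genotype effect had its smallest p-values in Mef2d and Hdac7. For Mef2d the log2 fold change was 0.11 with SE 0.03 and a 95% interval of 0.04 to 0.18 (edgeR, adjusted p = 0.118). For Hdac7 it was 0.15 with SE 0.05 and an interval of 0.05 to 0.26 (edgeR, adjusted p = 0.147). In fold terms these are 1.08 and 1.11. None of the 7 genes was called by edgeR, against 1.33% of all genes, and 2 of 7 had an unadjusted p under 0.05, against 14.1%. The DESeq2 Wald test called Mef2d (log2 fold change 0.11, adjusted p = 0.038), but it called 549 of all genes here, against 205 by edgeR. With limma voom Mef2d had an adjusted p of 0.0593. The length and GC offset lowered Mef2d to 0.05 and Hdac7 to 0.09, and with the replicate block added Hdac7 was at 0.07.

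The other 5 genes had mean effects of 0.11 (Hdac4, SE 0.07), 0.07 (Mef2c, SE 0.07), 0.01 (Hdac5, SE 0.04), -0.02 (Mef2a, SE 0.06) and -0.06 (Hdac9, SE 0.11). With the offset Hdac4 was at 0.05. For Hdac5 the interval was narrow, from 0.958-fold to 1.07-fold. For Hdac9 it was the widest, from 0.818-fold to 1.13-fold.

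**Figure D3:**
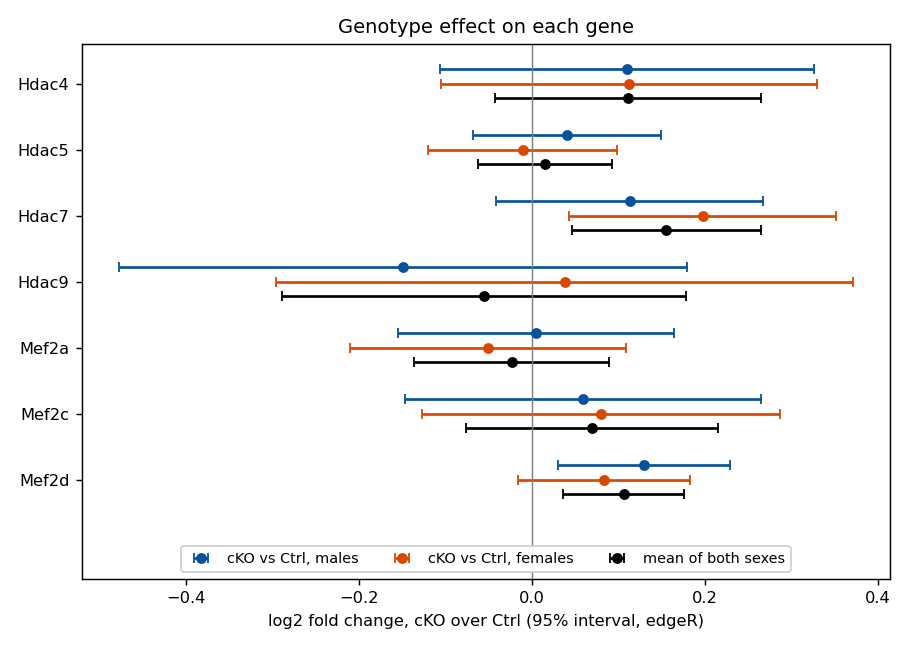
Log2 fold change of cKO over Ctrl (horizontal axis) for each gene in males (blue), females (orange) and as the mean of both sexes (black). Points are edgeR estimates and bars 95% intervals; the intervals of Mef2d in males, Hdac7 in females and both genes in the mean lie above 0 before adjustment over all genes.

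Females and males were also compared within each genotype. Hdac4, Hdac5 and Hdac7 had higher estimates in females in both genotypes, with log2 differences of 0.11 in Ctrl and 0.11 in cKO for Hdac4 and of 0.03 and 0.11 for Hdac7. Hdac5 had the smallest p-values of the 7. Ctrl females had 97.4 ± 5.10 CPM (SD, n = 6), against 87.3 ± 8.67 (SD, n = 6) for Ctrl males, and 6 of 6 females lay above the male mean. Knockout females had 96.7 ± 3.50 and knockout males 89.8 ± 5.44 CPM (SD, n = 7 in both), with 7 of 7 females above the male mean. The groups overlapped in both. Log2 differences of Hdac5 of 0.16 (SE 0.06, edgeR p = 0.00783, adjusted p = 0.204) and 0.11 (SE 0.05, p = 0.0463, adjusted p = 0.278) did not pass the threshold, and exact permutation p-values were 0.039 and 0.0163.

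By edgeR none of the 7 genes was called in Ctrl (against 0.638% of all genes) or in cKO mice (against 2.7%). The DESeq2 Wald test and limma voom also called 0 of 7 in both. Of all genes the Wald test called 253 in Ctrl and 707 in cKO mice. At an unadjusted p under 0.05 Hdac5 was the 1 of 7 in each, against 12.1% and 17.3% of all genes. For Mef2d the sexes differed by 0.02 on the log2 scale in Ctrl (95% interval -0.08 to 0.12) and by -0.03 in cKO (-0.12 to 0.07).

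Beyond the groups, the genes varied from mouse to mouse in a shared way. Deviations of log2 CPM from the group mean were compared over all 26 mice. These points share libraries, depth and tissue composition, so the correlations are descriptions only. Hdac4 and Mef2a deviated together (Pearson r = 0.59, and 0.63 without the 2 most distant mice), with r between 0.43 and 0.79 in the 4 groups. Hdac7 went the other way from Mef2a (r = -0.62), which weakened to -0.40 without the 2 most distant mice. Hdac9 and Mef2c had r = 0.47 over all mice, but -0.09 and -0.23 in Ctrl and cKO males against 0.83 and 0.87 in the female groups. The pairs named so far had the largest r of either sign. Next came Hdac4 and Hdac7 (r = -0.41), at -0.48 without the 2 most distant mice and between -0.73 and -0.29 in the 4 groups. Hdac5 and Mef2c had r = 0.35. Weak pairs included Hdac5 and Hdac7 (r = -0.02), Mef2a and Mef2c (-0.04) and Mef2c and Mef2d (0.06).

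Endothelial marker RNA moved with Hdac7 and against Hdac4 and Mef2a. The mean deviation of the 8 endothelial markers had r = 0.68 with Hdac7, -0.62 with Hdac4 and -0.71 with Mef2a. For Hdac7 and Hdac4 the sign was the same in each of the 4 groups (0.65 to 0.84 and -0.78 to -0.56), and for Mef2a the range was -0.99 to -0.27. Hdac5, in contrast, had r = 0.02 with these markers. Mef2d had r = 0.52 with cardiomyocyte markers and -0.64 with macrophage markers, though 0.07 and -0.18 among cKO females. Deviations with total count gave at most r = 0.31, for Hdac9.

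**Figure D4:**
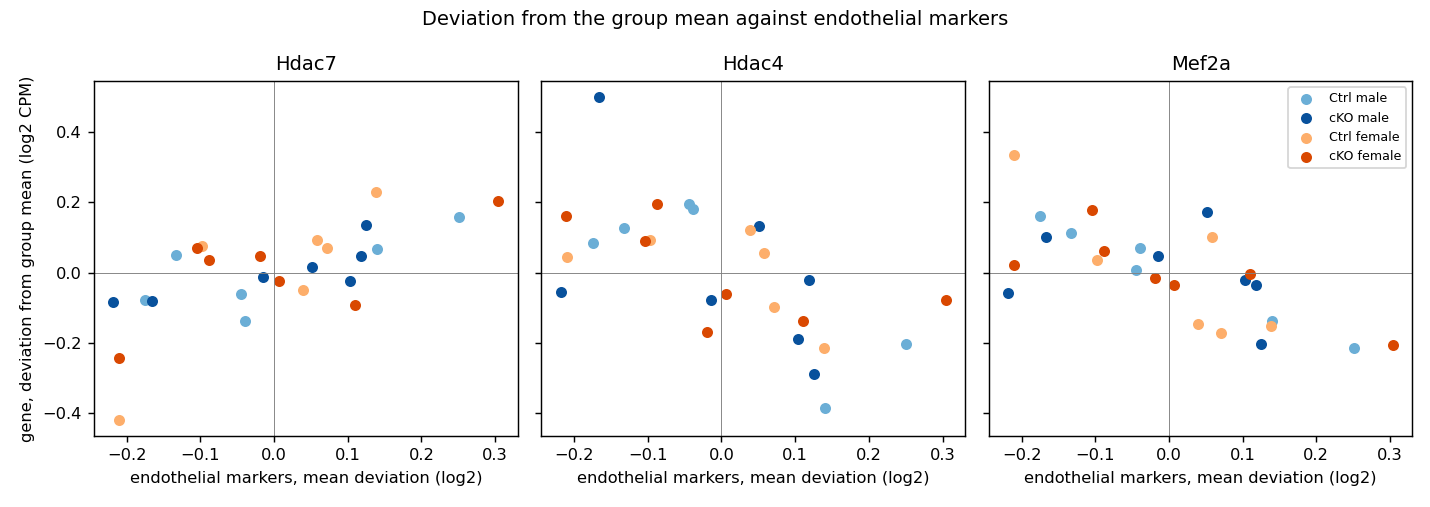
Deviation from the group mean, in log2 CPM, of Hdac7, Hdac4 and Mef2a (vertical axes) against the mean deviation of 8 endothelial markers (horizontal axes) in 26 mice coloured by group. Hdac7 climbs with the markers (r = 0.68) while Hdac4 (r = -0.62) and Mef2a (r = -0.71) descend; the lowest Hdac7 point and the highest Mef2a point are Ctrl female 2.

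Of all genes tested, those most like each member by this measure were, over 26 mice, as follows. Hdac7 was closest to Elk3 (r = 0.83), then Fhod1, Ggta1, Arhgef15 and Myct1. Mef2a was closest to Csnk1a1 (r = 0.89), then Arf4, Ifngr2, Slc16a6 and Gm26795, and Hdac4 to Xk (r = 0.76), then Cops7a, Ifngr2, Vps18 and Kmt5a. Ifngr2 thus stood in both lists. Mef2d was closest to Naca (r = 0.84), then Speg, Plec, Larp1 and Mypn, Mef2c to Acvr1 (r = 0.81), then Ttc30b, Bcl11b, Meis1 and Lrrc3b. For Hdac5 the order was Tead3 (r = 0.73), Fbxw7, Pink1, Fgf16 and Mhrt, a transcript overlapping the Myh7 locus whose count is uncertain. For Hdac9 it was Prox1 (r = 0.78), Rest, Fgfr2, BC025920 and Pwwp3b. Low levels limit the r of Fgfr2 (mean 0.535 CPM), Pwwp3b (1.79), Bcl11b (1.95) and BC025920 (3.03).

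Around the class IIa enzymes, lists of their kinases, 14-3-3 partners and corepressors were examined for the genotype effect. Of the 17 kinase genes tested (18 listed, Camk4 too low), 0 were called by edgeR in males, in females or in the mean. Their median log2 fold change in the mean was 0.003, against 0.004 for all genes. The smallest p-values were those of Camk1, a calcium and calmodulin kinase, at 0.10 in the mean on the log2 scale, with SE 0.03 (edgeR, adjusted p = 0.113; DESeq2 Wald test, adjusted p = 0.0338). Camk2d, the main CaMKII gene of the ventricle, was at 0.03 and Prkd1, a PKD gene, at 0.12.

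The single called kinase was Camk2b, another CaMKII gene, in the comparison of the sexes. It was lower in cKO females (9.83 to 17.8 CPM, median 13.99) than in cKO males (14.7 to 21.5 CPM, median 18.04), by -0.41 on the log2 scale (SE 0.10, edgeR adjusted p = 0.0223). In Ctrl mice the difference was -0.42 (adjusted p = 0.0562). The cKO call was lost when only the groups compared were fitted (adjusted p = 0.0609) and without any one of cKO males 1 and 7 and cKO females 2 and 4 (highest adjusted p = 0.0583). Of the 7 genes for 14-3-3 proteins, 0 were called in any comparison, with a median of 0.003 in the mean.

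Of the 9 corepressor partner genes examined, 0 were called in any comparison, and their median in the mean was -0.002 against 0.004 for all genes. Tbl1xr1, a subunit of the NCoR corepressor complex, had the smallest p-value in the mean effect. It ranged from 23.8 through 29.5 to 33.4 CPM in Ctrl males and from 28.8 through 32.5 to 37.3 CPM in cKO males, which overlapped. The female values of 29.8, 31.5 and 36.2 CPM in Ctrl and 30.2, 31.6 and 36.8 CPM in cKO lay closer still. Its mean effect was 0.10 on the log2 scale (SE 0.05, edgeR adjusted p = 0.383), with 0.17 in males (adjusted p = 0.283). With the length and GC offset these were 0.04 (edgeR adjusted p = 0.769) and 0.09 (adjusted p = 0.636). Hdac3 was at -0.02 and Ncor1, a scaffold of that complex, at -0.002 in the mean. The other 6 HDAC genes had 0 calls, with Hdac2 lowest in p (mean -0.09, SE 0.03, adjusted p = 0.178).

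On the MEF2 side, 18 coactivators, partners and activating kinases were tested (19 listed, with Mef2b too low), and 0 were called. At an unadjusted p under 0.05, 6 of 18 were higher in the mean effect, against 6.43% of all genes, and 1 of 18 was lower, against 7.7%. The higher ones included Cabin1, a repressor of MEF2 (0.16, SE 0.04, edgeR adjusted p = 0.0572), and the acetyltransferase genes Crebbp (0.18, adjusted p = 0.0583) and Ep300 (0.08, adjusted p = 0.236). With the length and GC offset Cabin1 was at 0.09 (adjusted p = 0.267), while 4 of 11 other settings called it (lowest adjusted p = 0.0119, DESeq2), as did 3 of 26 fits without 1 mouse (cKO male 7, Ctrl female 6 or cKO female 2; lowest 0.0091). In males Ep300 ranged from 39.8 to 45.9 CPM in Ctrl and from 46.9 to 50.7 CPM in cKO, which did not overlap (log2 fold change 0.16, SE 0.05, edgeR, adjusted p = 0.0847). It was 0.07 with the offset (adjusted p = 0.475), and was called by the DESeq2 Wald test (adjusted p = 0.0125) and among genes with a mean of at least 5 CPM (adjusted p = 0.0449). The ranges and calls of Ep300 given here are those of males only. Its effect was 0.08 as the mean of both sexes, against 0.16 in males, so the estimate in females was lower. By edgeR this sex difference in the effect was not called. The share of all genes with separate ranges in males is not given here. Srf, Gata4 and Nkx2-5, cardiac factors that work with MEF2, were at 0.01, -0.03 and -0.05 in the mean.

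Known MEF2 target genes showed 2 calls among 16 in the mean effect, both lower, against 0.866% of all genes called lower. Ckm, the muscle creatine kinase, ranged from 2991 through 3154 to 3491 CPM in Ctrl males and from 2632 through 2907 to 3109 CPM in cKO males. In females it ranged from 2797 through 3068 to 3122 and from 2562 through 2780 to 2903 CPM. Ranges overlapped in both sexes, and the mean effect was -0.14 on the log2 scale, with SE 0.03 (edgeR, adjusted p = 0.0265).

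Smyd1, a heart and muscle methyltransferase, ranged from 533.5 through 629.1 to 661.4 CPM in Ctrl males and from 434.3 through 523.9 to 568.1 CPM in cKO males. The female ranges, 493.1 to 664.6 and 422.8 to 549.0 CPM, overlapped more. On the log2 scale its mean effect was -0.21 with SE 0.05 (edgeR, adjusted p = 0.0377). Leaving out single mice ended the call of Ckm in 5 of 26 cases (highest adjusted p = 0.0554; Ctrl males 1 and 5, Ctrl females 1 and 4, cKO female 5) and that of Smyd1 in 12 of 26 (highest adjusted p = 0.0738).

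Across the 16 targets the median mean effect was -0.08, against 0.004 for all genes, with 10 below 0 and 6 above it. Nppa, the atrial natriuretic peptide gene and a marker of cardiac stress, was at 0.95 (SE 0.27, adjusted p = 0.0812) and Myl2, the ventricular light chain, at -0.15 (SE 0.05, adjusted p = 0.104). Cardiomyocyte markers, 2 of which are also on the target list, averaged 71898 CPM in sum (SD 3434) for the 6 Ctrl males, above the 65209 CPM (SD 3904) of the 7 cKO males. The sums for females were 75350 CPM (SD 4509) and 71104 CPM (SD 4213). Of these 8 markers Tnni3 (-0.24) and Myl3 (-0.20) were called lower in males by edgeR (adjusted p = 0.0316 and 0.0374). Without 1 mouse these male calls were lost in 7 and 12 of 26 fits (highest adjusted p = 0.107 and 0.0991), and both were lost without Ctrl males 3 and 6 and with offset and block together. In the mean effect both genes were called (-0.17 each, adjusted p = 0.0168 and 0.00965), also under each of the 11 alternatives and without any single mouse. The part of this difference in the target values was not tested.

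Between the sexes in cKO mice, 2 targets were called. Xirp2, a gene of the intercalated disc, was lower in females (521.8 to 653.5 CPM, against 648.6 to 956.0 in males), by -0.46 (SE 0.08, edgeR adjusted p = 0.00387). In Ctrl mice its difference was -0.35 (SE 0.09, adjusted p = 0.072). Myl2 was higher in females by 0.26 (SE 0.06, adjusted p = 0.0231), a call lost without cKO male 6 or cKO females 2 or 4 (highest adjusted p = 0.0566). Of 6 PP2A-B55 genes tested, Ppp2r2a alone was called, at -1.40 in males and -1.58 in females (adjusted p = 1.86e-06 and 1.9e-07).

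**Figure D5:**
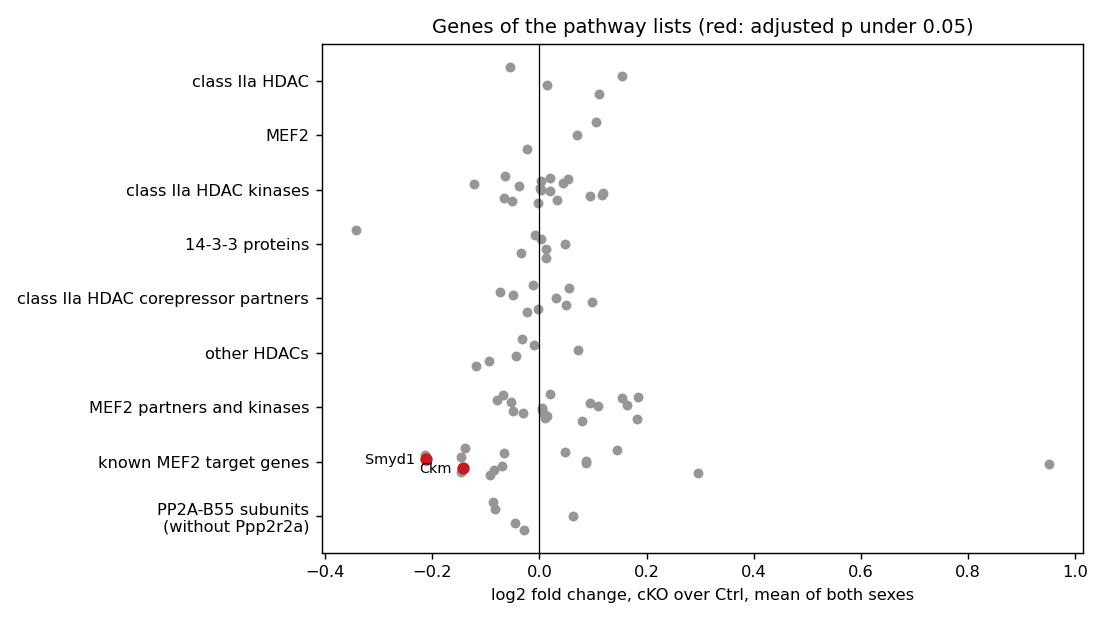
Mean log2 fold change over both sexes, cKO over Ctrl (horizontal axis), of the class IIa HDAC and MEF2 genes and of each pathway list, 1 point per gene. Red points passed an adjusted p under 0.05: Ckm and Smyd1 among MEF2 targets at -0.14 and -0.21; Ppp2r2a, at -1.49, is left out of the plot.

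Overlapping genes on the opposite strand limit how 4 of the members can be read. The sources used here do not say whether reads were counted by strand. Exons of Hdac7 share 29 bases with Slc48a1 (70.8 CPM) and those of Mef2a 302 bases with Lysmd4 (17.8 CPM). Those of Mef2d share 531 bases with 1700113A16Rik (0.224 CPM), and those of Hdac4 3536 bases with Gm26720, which was not used here. On the same strand, exons of Hdac5 share 111 bases with a microRNA gene (0 CPM).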

How the data were processed

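Poly-A-selected, stranded RNA libraries of left ventricle were made from 500 ng of RNA (integrity number at least 7.7), per the labels' protocols. What the authors deposited is 1 matrix of raw gene counts with a column per mouse, not normalized. FastQC 0.74, cutadapt 4.6, STAR 2.7.11a, HTSeq and build GRCm39 are named in the submitters' processing notes. The annotation release and strand setting are not given in the sources used here. Each sample is labelled as a separate library, and no pair within a group agreed within sampling noise (chi-square per degree of freedom 7.80 to 37.0 over 72 pairs). Rows with a blank name (310) were kept by gene ID.

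The counts were fitted with edgeR 4.0.16 (R 4.3.3): filterByExpr with a minimum count of 10, TMM scaling, 4 group means over 26 mice, robust quasi-likelihood F tests, and Benjamini-Hochberg adjustment over 15357 genes, called at 0.05. A positive log2 fold change means higher in cKO, or in females. Log2 CPM used a prior count of 2. Exon lengths and GC were looked up in GENCODE M21 through gene IDs (found for 15092 genes tested), and promoters in the RefSeq table. The fit was also run on simulated counts with changes set in cKO males only. The outcome of that run is not reported here, and no result rests on it.

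Genes named are the 7 members, the 5 genes most like each, Ppp2r2a, and, of each list, genes called in any contrast and those of smallest p. Camk2d, Prkd1, Hdac3, Ncor1, Crebbp, Srf, Gata4, Nkx2-5, Nppa and Slc48a1, Lysmd4 and Gm26720 were named after their values were seen. Of the corepressor list 1 gene is not reported here and is left out of its counts. Members and lists were chosen with earlier results of these data known. Alternatives were DESeq2 1.42.0 (size factors, Wald test), limma 3.58.1 voom, sva 3.50.0, other filters, a length and GC offset (splines with 4 degrees of freedom), a replicate block and leaving out mice.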

Additional observations from a re-analysis of the deposited data

How the results depend on the processing

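In each of the 6 comparisons the count of class IIa HDAC and MEF2 genes called was 0 of 7 under every alternative run and with any single mouse left out, with 1 exception. In the mean effect the DESeq2 Wald test called Mef2d (0.11), among 549 of all genes. Signs of log2 values near 0 changed as follows, and the cause was not tested. With 1 surrogate variable Mef2a in males was -0.023 and the sex difference of Mef2c -0.030. With the length and GC offset, males had -0.042 (Hdac5), -0.049 (Mef2a) and -0.020 (Mef2c), the mean of Hdac5 was -0.052, and females against males had -0.013 (Hdac7) and -0.0063 (Mef2d) in Ctrl and 0.065 (Mef2c) in cKO. The sex difference of Hdac4 was -0.0016 with DESeq2 size factors, -0.0014 with the DESeq2 test, -0.012 with limma voom and -0.093 without Ctrl males 3 and 6. Leaving out these mice also gave 0.0053 for the sex difference of Mef2d, and -0.022 (Hdac7) and -0.035 (Mef2d) for females against males in Ctrl. In cKO Mef2c was 0.025 with limma voom.

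Whether replicate numbers pair the mice cannot be settled from so few mice. Same-numbered Ctrl and cKO mice had a mean correlation of deviations of -0.03 in males and 0.12 in females (lowest -0.16 and -0.10, highest 0.09 and 0.40). Mice of different numbers averaged 0.004 in males and -0.02 in females. Of the Ctrl mice, 1 of 6 males and 2 of 6 females correlated best with their own number. With the replicate block 0 of 7 genes were called in any comparison, the mean of Mef2a was 0.015, and calls over all genes went from 68 to 75 in males and from 5 to 3 in females. Ckm and Smyd1 then had adjusted p of 0.0619 and 0.078 (edgeR). With block and offset together, males had -0.042 (Hdac5), -0.012 (Mef2a) and -0.028 (Mef2c), the mean of Hdac5 was -0.051 and that of Ywhae 0.0033, and females against males had -0.013 (Hdac7) and -0.0056 (Mef2d) in Ctrl and 0.060 (Mef2c) in cKO.

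Single mice left out gave these ranges of log2 values. In females Hdac5 had -0.033 to 0.0051, Hdac9 -0.076 to 0.18 and Mef2a -0.086 to 0.023, and in males Mef2a had -0.034 to 0.037. In the mean effect Hdac5 had -0.0046 to 0.032, Hdac9 -0.11 to 0.014 and Mef2a -0.043 to 0.014. Sex differences of the effect had -0.044 to 0.098 (Hdac4), -0.092 to 0.019 (Mef2a) and -0.039 to 0.082 (Mef2c). Females against males had -0.019 to 0.10 (Hdac7), -0.22 to 0.028 (Hdac9), -0.099 to 0.010 (Mef2a), -0.088 to 0.032 (Mef2c) and -0.014 to 0.043 (Mef2d) in Ctrl, and -0.064 to 0.040 (Mef2c) in cKO.

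Over all genes, 68 were called in males, 7 without Ctrl males 3 and 6, 15 with the offset and 399 with DESeq2, and leaving out 1 mouse gave 4 (Ctrl male 5) to 122 (Ctrl female 6). In females 5 were called (1 to 9 over the other settings), in the mean 205 (113 to 549), and between the sexes 98 in Ctrl (40 to 253) and 414 in cKO (209 to 707). Pathway genes called numbered 3 in the mean effect (1 to 10), 1 in males (1 to 6) and 0 between the sexes in Ctrl (0 to 2). With the longest transcript, levels per kb were 3.83 (Hdac4), 17.2 (Hdac5), 14.01 (Hdac7), 1.94 (Hdac9), 27.0 (Mef2a), 8.98 (Mef2c) and 29.2 (Mef2d).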
